A study of Mus musculus with 10 samples.

Results

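V6.5 mouse embryonic stem cells (ESCs) were compared with their progeny after a neural differentiation protocol, labelled ESC-derived NPCs, for neural progenitor cells. Both groups carried the control siRNA, directed against luciferase, so neither had a knockdown. The groups also differed in their culture, as given below, and this cannot be told apart from differentiation. Each group had 2 libraries, labelled as biological replicates. A gene entered the comparison when its deposited level was at least 1 RPKM (a read density scaled to transcript length and to the number of mapped reads) in at least 2 of the 4 libraries, which 11317 of 24520 genes did. Per the labels' protocols, the ESCs grew on irradiated mouse embryonic fibroblasts, called MEFs, in medium with serum and leukemia inhibitory factor (LIF). For NPC control, embryoid bodies were grown for 4 days, broken up and seeded in ITSF medium. The protocol gives siRNA transfection on day 5 and RNA harvest on day 8, and it names no other day for the ESCs. Trizol served for the extraction of total RNA and a TruSeq RNA kit for the libraries. No marker sort is described, so a library holds the RNA of every cell in the dish, and fewer cells of a type cannot be told apart from less RNA per cell. Both groups came from a single ESC line, V6.5, and nothing in the labels says whether replicates came from separate thaws or separate differentiations.

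ESCs kept in serum and LIF hold a naive state in which LIF acts through its receptor and the factor STAT3 to sustain Esrrb, Klf4 and Nanog. When LIF is withdrawn, cells first pass through a primed, epiblast-like state that loses the naive factors, keeps Pou5f1 and gains Fgf5, Otx2 and Dnmt3b. Cells then enter the neural lineage, with Sox1, Pax6 and Nes, or the primitive streak, with T and Eomes, from which mesoderm and endoderm arise.

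The label was set against markers of the cell types that such a culture could hold. Of 10 neural progenitor markers, 7 were under 1 RPKM in all 4 libraries (among them Fabp7, Hes5, Zic1, Rfx4, Lhx2 and Six3), and the summed level of the markers was 13.5 and 23.9 RPKM in the ESC libraries and 48.5 and 46.1 RPKM in NPC control, where Nes, an intermediate filament, made up most of it. Pou5f1, the POU factor that marks pluripotent cells, stood at 484 and 497 RPKM in NPC control against 536 and 308 in ESC control. Markers of the naive state summed to 260.4 and 141 RPKM in ESC control and 27.95 and 28.9 in NPC control, and those of the primed epiblast to 136 and 261 against 417 and 408. Most of the primed sum was Dnmt3b, at 119.6 and 218 RPKM in ESC control and 346 and 350.3 in NPC control. Dnmt3b did not pass, and of the 6 primed markers 1 passed, as higher. Thus NPC control had low naive markers and more Nes than ESC control, but it held high Pou5f1 and lacked most markers that define neural progenitors, so the label is used here only as a name. All 5 glial and all 5 blood and endothelial markers were under 1 RPKM in all 4 libraries, as were all 3 trophoblast markers. Of the endoderm markers, Sox17, Foxa2 and Afp were under 1 RPKM throughout, Gata6 reached 1.13 RPKM only in ESC control replicate 1, and Gata4 reached 1.31 RPKM only in NPC control replicate 1.

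The ESC control libraries differed from each other far more than the NPC control libraries did. The median gene differed between replicates by 0.268 log2 units in ESC control and by 0.101 in NPC control, on the scale of log2(RPKM + 1) used for every difference here. More than 2-fold apart were 642 genes in ESC control and 6 in NPC control. Low values, multiplied by transcript length, fell on steps that stand for reads. In both ESC replicate 2 libraries (control and Cbx3 siRNA) the most common low value was 1 step and in the other 8 libraries it was 2 steps. If the finest step is 1 read, the depths were 24.3 M reads in ESC control replicate 2 and 52.00, 54.5 and 55.7 M reads in ESC control replicate 1 and NPC control replicates 1 and 2. The most common low value itself was similar, at 0.0385 and 0.0412 in ESC control and 0.0367 and 0.0359 in NPC control (RPKM times kilobases). The lower depth of ESC control replicate 2 thus rests on the step taken as 1 read, which was not tested. ESC control replicate 2 was also higher for genes that have pseudogenes named after them. Its median difference from replicate 1 was -0.08 for the 11009 genes without a pseudogene named after them, 0.43 for 197 genes with 1, 0.93 for 53 with 2 and 1.83 for 58 with 3 or more, against medians of 0.01 to 0.08 in NPC control. Cbx3, which encodes HP1 gamma and has 6 such pseudogenes, shows it: 13.99 and 56.4 RPKM in ESC control and 9.37 and 9.65 in NPC control (log2 change -1.48, standard error 0.53, adjusted p = 0.0956, not passed). Other genes named below also have such pseudogenes, among them Ldha and Rbpj (3 each) and Aldoa and Tdgf1 (2 each). Dnmt3b, Dnmt3l, Lgals1, Gbp2, Rybp, Bmp4, Tubb3 and Zfp42 have 1 each. Of these genes, Aldoa, Bmp4, Dnmt3l and Zfp42 were lower in ESC control replicate 2 and the others higher. The part of these library differences in the results was not tested, and each list is therefore given with and without both ESC replicate 2 libraries. The fit without them keeps a single library in each ESC group. The ESC spread does not enter its p-values, and its counts are descriptions.

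**Figure D1:**
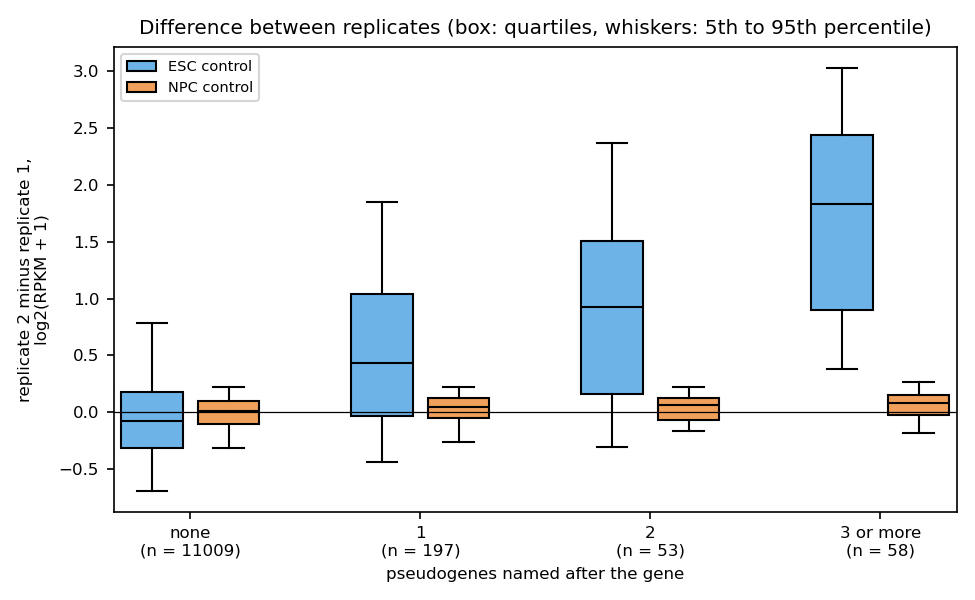
Difference between replicate 2 and replicate 1 on the log2(RPKM + 1) scale (vertical axis) for genes grouped by the number of pseudogenes named after them (horizontal axis), in ESC control (blue) and NPC control (orange). Boxes show quartiles and whiskers the 5th to 95th percentile over genes. The ESC medians rise from -0.08 to 1.83 while the NPC medians stay between 0.01 and 0.08.

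Of the 11317 genes, 1882 passed at an adjusted p of 0.05 (16.6%), with 1186 higher (10.5%) and 696 lower (6.15%) in NPC control. These are the genes called risen or fallen in the text, and values are given in the order of replicates 1 and 2, for ESC control first. The p-values come from a limma fit to all 10 libraries of the series, in which the ESC Cbx3 siRNA, NPC Cbx3 siRNA and NPC Med26 siRNA groups help to estimate the spread, and they measure only the spread between these samples. The fit takes the spread as equal between groups and the libraries as independent. However, ESC replicates lay farther apart, and replicate deviations of the ESC control and ESC Cbx3 siRNA groups correlated at 0.88. With the 4 control libraries alone 47 tested genes passed, and with array weights 1074, against 1918 as reported. Every one of the 1882 had 4 control values that did not overlap between groups, as did 35.1% of all genes in the higher and 24.1% in the lower direction. The change reached 2-fold for 217 risen and 227 fallen genes, and the median change over all genes was 0.04. The shares of 16.6%, 10.5% and 6.15% are the ones to set beside the counts of each list below. Of the genes compared, 266 entered through the NPC libraries alone and 210 through the ESC libraries alone, and 155 and 112 of these passed. The share of a list that passed therefore also depends on how many such genes the list holds. Rescaling the libraries by their median ratio moved the split among all tested genes from 1208 higher and 710 lower to 944 and 906. The refits given next leave a single library in a group. Without both ESC replicate 2 libraries the ESC spread does not enter the p-values, so passing again there is no check against that spread. Without both ESC replicate 2 libraries, 23.6% of genes passed as higher and 22.9% as lower, and 1870 of the 1882 passed again in the same direction. Without either 1 of the NPC control libraries, only 185 or 242 of the tested genes passed, against 1918 with all libraries.

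**Figure D2:**
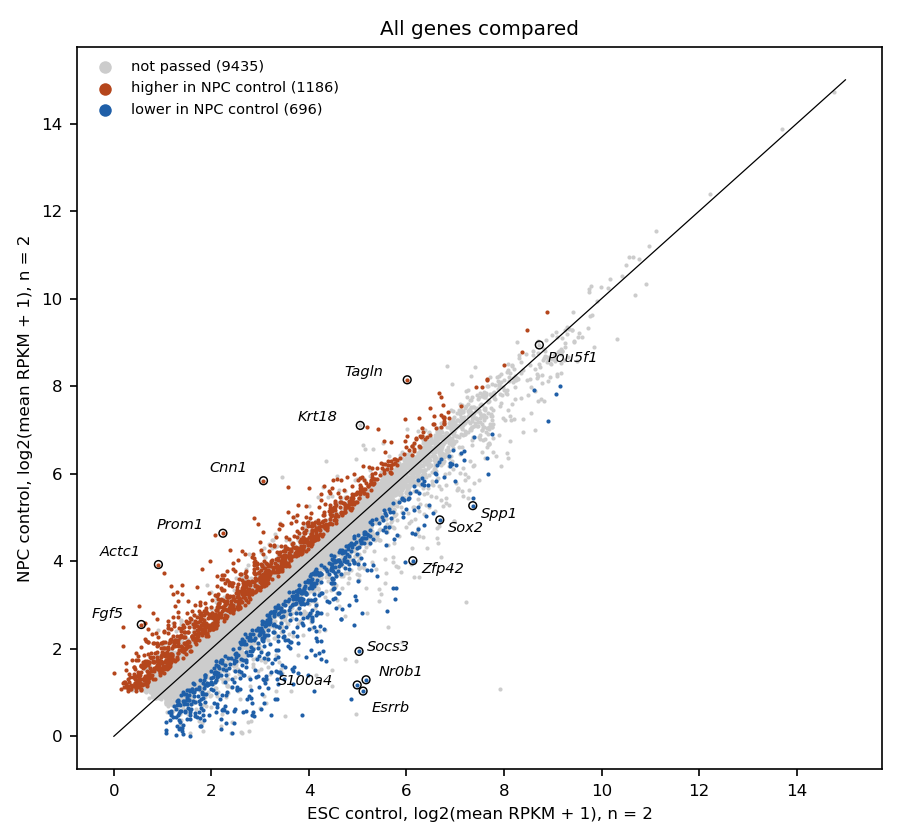
Mean level in ESC control (horizontal axis) and NPC control (vertical axis), log2(mean RPKM + 1) with 2 libraries each, for the 11317 genes. The 1186 genes that passed as higher in NPC control are orange, the 696 that passed as lower are blue, and the line marks equal levels. Of the labelled genes that passed, Esrrb, Nr0b1 and S100a4 lie farthest below the line and Actc1 and Cnn1 farthest above it, while Pou5f1 lies near it.

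Most naive pluripotency genes fell. Of 24 measured genes of the list, 16 fell, 0 rose and 8 did not pass, with a median change of -1.83 against 0.04 over all genes. Without both ESC replicate 2 libraries 23 fell and 1 rose. Esrrb, an orphan nuclear receptor that binds naive enhancers, stood at 53.4 and 13.7 RPKM in ESC control and 1.18 and 0.913 in NPC control. Both NPC values were more than 10-fold under the lower ESC value, and the gene changed by -3.79 log2 units (standard error 0.67, adjusted p = 0.0121). Nr0b1, which encodes the corepressor DAX1, went from 50.03 and 20.01 to 1.29 and 1.599 RPKM (log2 change -3.75, standard error 0.43, adjusted p = 0.00329). The Kruppel-like factor Klf4 went from 20.7 and 6.45 to 0.458 and 0.352 RPKM, which left it under 1 RPKM in NPC control (log2 change -3.18). In each of these genes ESC control replicate 2 lay between replicate 1 and the NPC libraries, a position it took in that sense (nearer to the NPC mean than replicate 1) for 21 of the 24 naive genes and for 54.4% of all genes compared. Other falls were smaller and tighter. Zfp42, the zinc finger gene known as Rex1, stood at 79.6 and 58.6 RPKM in ESC control and 14.3 and 15.97 in NPC control (log2 change -2.10, standard error 0.18). Fbxo15, an F-box gene used as an ESC reporter, went from 60.3 and 43.1 to 9.24 and 9.603 RPKM, and Dppa5a, an RNA-binding protein gene of the early embryo, from 537 and 413 to 148 and 146 RPKM. The homeobox gene Gbx2 (log2 change -2.47), the adhesion molecule gene Pecam1 (-1.38) and the 5-methylcytosine oxidase gene Tet2 (-1.83) fell too. Nanog and Fgf4 did not pass. Nanog was at 44.2 and 18.00 RPKM in ESC control and 24.3 and 23.5 in NPC control, so that the NPC values lay between the ESC replicates, and the log2 change was -0.24 (adjusted p = 0.77). It turned to 0.39 without ESC control replicate 1 and was -0.86 without replicate 2.

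Genes of the LIF pathway fell at the levels of receptor, transducer and target. LIF binds its receptor Lifr, which pairs with gp130, activates the kinases Jak1 and Jak2 and through them Stat3, and Stat3 raises its own inhibitor Socs3. Of 12 genes, 6 fell and 1 rose, and without both ESC replicate 2 libraries 7 fell and 1 rose. Socs3 went from 43.3 and 19.9 to 2.93 and 2.74 RPKM (log2 change -2.99, standard error 0.41, adjusted p = 0.00563). Stat3 was the steadiest, at 11.3 and 11.1 RPKM in ESC control and 3.23 and 2.89 in NPC control (log2 change -1.59, standard error 0.09, adjusted p = 0.000449). The 2 ESC values of Stat3 were nearly equal and both lay more than 3-fold over the NPC values. Lifr went from 12.1 and 6.58 to 1.66 and 1.84 RPKM, Socs2, another feedback inhibitor, from 25.2 and 23.1 to 11.7 and 12.5, and Bcl3, a nuclear inhibitor-of-kappaB family member, from 7.56 and 5.101 to 0.537 and 0.208. Jak2 rose from 1.63 and 1.86 to 2.67 and 3.27 RPKM. The kinase genes Pim1 (log2 change 0.06) and Pim3 (-0.14), which are STAT targets in other cells, did not pass.

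The genes shared by naive and primed pluripotency divided. Of 19, 6 fell, 1 rose and 12 did not pass, and without both ESC replicate 2 libraries 8 fell and 5 rose. Pou5f1 did not pass (log2 change 0.27, standard error 0.30, adjusted p = 0.553), and both its NPC values lay between the ESC values. The RNA-binding protein gene Lin28a stood at 109.6 and 195 RPKM in ESC control and 238 and 238 in NPC control and did not pass (log2 change 0.70, adjusted p = 0.185). Sox2, the partner of Pou5f1 in ESCs and a SoxB1 factor of neural progenitors, fell from 131 and 72.1 to 29.6 and 29.9 RPKM (log2 change -1.68, standard error 0.31, adjusted p = 0.014). Pou5f1 and Sox2 thus differed in their values: the former was level within the ESC spread and the latter was under both ESC replicates by more than 2-fold. The threonine dehydrogenase gene Tdh (log2 change -2.33), the cell cycle factor gene Mybl2 (-1.52) and the zinc finger gene Sall1 (-0.87) fell. Gdf3, a TGF-beta family ligand, rose from 44.3 and 62.7 to 77.5 and 82.00 RPKM (log2 change 0.59), and Tdgf1, the Nodal coreceptor, was at 236 and 248 RPKM against 186 and 186 and did not pass. Foxd3, a forkhead factor of pluripotent and neural crest cells, was at 4.37 and 5.66 RPKM against 8.67 and 7.87 (adjusted p = 0.0761, not passed).

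Primed epiblast genes that passed were mostly higher. Of 20, 5 rose and 1 fell, with a median change of 1.13, and 16 rose and 3 fell without both ESC replicate 2 libraries. Fgf5, the ligand that marks the postimplantation epiblast, rose from 0.156 and 0.797 to 5.12 and 4.62 RPKM (log2 change 2.02, standard error 0.20, adjusted p = 0.00219). Sall2, a zinc finger gene, went from 3.43 and 6.26 to 16.7 and 13.7 RPKM, Fgf15, a ligand of the FGF19 subfamily, from 3.95 and 4.01 to 10.8 and 11.1, and the carbonic anhydrase gene Car14 from 0.828 and 0.717 to 3.23 and 3.48. The de novo DNA methyltransferase gene Dnmt3b was at 119.6 and 218 RPKM in ESC control and 346 and 350.3 in NPC control. All NPC values of Dnmt3b exceeded both ESC values, but the ESC replicates lay far apart and the change did not pass (log2 change 1.10, standard error 0.34, adjusted p = 0.0672). Otx2, a homeobox factor of epiblast and forebrain, was at 5.02 and 9.47 RPKM against 15.1 and 12.8 with the same outcome (adjusted p = 0.0818). The claudin gene Cldn6 was at 22.1 and 55.2 RPKM against 96.8 and 91.7 (adjusted p = 0.0901, not passed). Foxp1 fell from 8.71 and 8.58 to 4.59 and 3.89 RPKM.

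**Figure D3:**
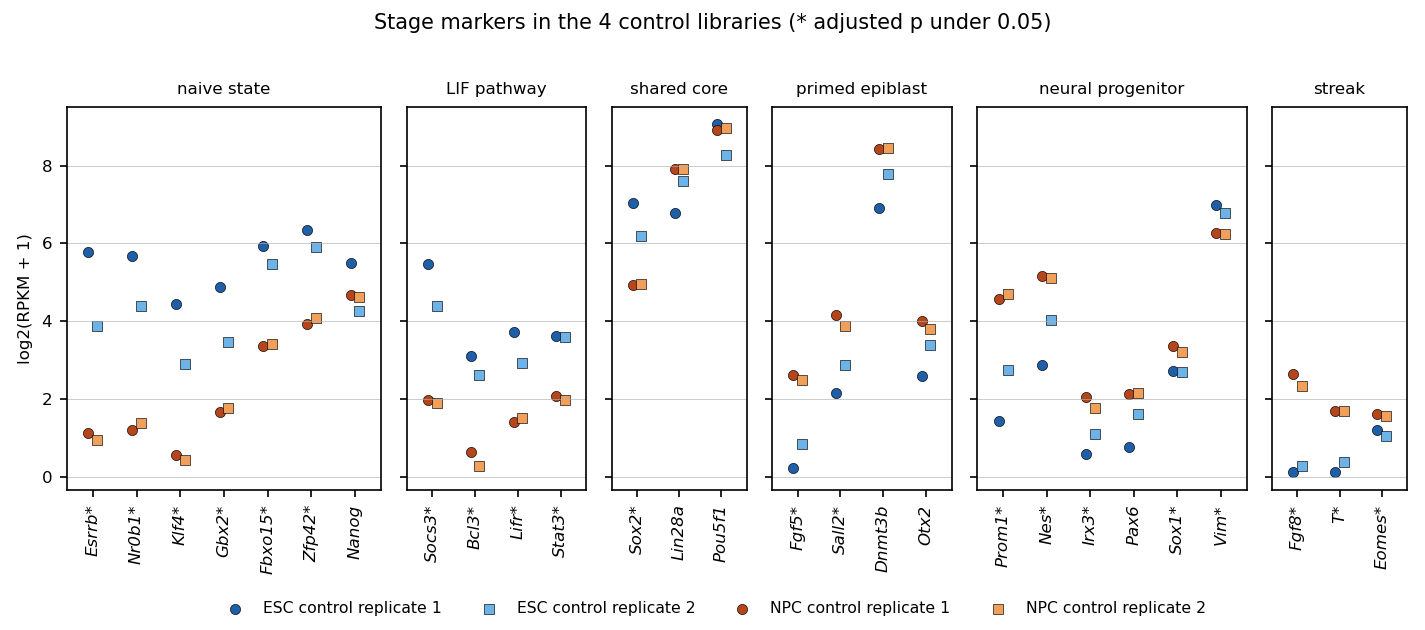
Levels of stage marker genes as log2(RPKM + 1) (vertical axis), 1 point for each library: dark blue circles and light blue squares are ESC control replicates 1 and 2, dark and light orange points are NPC control replicates 1 and 2. An asterisk marks genes that passed. The NPC points of each gene nearly coincide, whereas the ESC points of Esrrb, at 53.4 and 13.7 RPKM, stand far apart, and for the naive genes that passed both ESC points lie above the NPC points.

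Neural progenitor genes rose in part and stayed low in part. The list holds 45 genes of the deposited table, of which 22 were under the limit for the comparison and 23 entered it. Among these 9 rose and 4 fell, and 13 rose and 5 fell without both ESC replicate 2 libraries. Prom1, which encodes the membrane protein CD133, was at 1.702 and 5.72 RPKM in ESC control and 22.8 and 24.99 in NPC control (log2 change 2.55, standard error 0.48, adjusted p = 0.0149). Nes rose from 6.35 and 15.4 to 34.9 and 33.4 RPKM (log2 change 1.68, standard error 0.45, adjusted p = 0.0448). The SoxB1 factors went in different directions: Sox2 fell, Sox3 rose from 1.29 and 1.71 to 6.14 and 5.09 RPKM and Sox1 rose from 5.52 and 5.503 to 9.22 and 8.29. Sox1, the earliest factor specific to neural plate, changed by 0.58 (standard error 0.10, adjusted p = 0.0103) and was measured at close values within each group. The paired box factor gene Pax6 was at 0.704 and 2.07 RPKM in ESC control and 3.39 and 3.42 in NPC control. Its NPC values exceeded both ESC values, and the change did not pass (log2 change 0.95, adjusted p = 0.0534). The patterning factor Irx3 rose from 0.4901 and 1.12 to 3.11 and 2.41 RPKM and Lfng, which modifies Notch, from 1.72 and 3.06 to 7.92 and 6.78. Vim, the intermediate filament of progenitors and of fibroblasts, fell from 127 and 109.9 to 76.3 and 74.1 RPKM, and the adhesion molecule gene Ncam1 fell from 1.89 and 2.26 to 0.887 and 0.629.

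The share of neuron genes that passed, 17.6%, lay near the 16.6% of all genes, and no glia gene passed. Of 35 neuron genes in the table, 17 entered the comparison, and 3 rose and 0 fell (8 and 5 without both ESC replicate 2 libraries). Nefl, the light neurofilament chain, rose from 13.4 and 16.7 to 50.3 and 50.4 RPKM (log2 change 1.68, standard error 0.20, adjusted p = 0.00343). Nefm, the medium chain, went from 0.145 and 0.6698 to 2.69 and 2.01 RPKM and the synaptic vesicle gene Syp from 0.425 and 0.654 to 1.68 and 1.32. The neuronal tubulin gene Tubb3 was at 36.8 and 41.2 RPKM in ESC control and 46.3 and 48.2 in NPC control and did not pass (adjusted p = 0.316), nor did Uchl1 (log2 change 0.23) or Stmn2 (-0.20). Of 12 glia genes 4 entered, and none passed, with 1 higher and 0 lower without both ESC replicate 2 libraries (log2 changes of 0.09 for Slc1a3, 0.06 for Olig1 and -0.25 for Olig2). Genes of axon guidance, which also guide other migrating cells, gave 6 rises and 1 fall among 26 (11 and 4 without both ESC replicate 2 libraries). The netrin receptor gene Unc5b rose from 5.903 and 8.701 to 25.3 and 23.8 RPKM and the ephrin receptor gene Epha1 from 4.73 and 6.101 to 16.5 and 17.5. Sema3e, Slit3 and Plxnb1 rose by 1.14, 0.83 and 0.77 log2 units. The share of the axon guidance list that passed was 26.9%, against 16.6% of all genes, a difference that was not tested. The semaphorin and VEGF receptor gene Nrp1 fell from 1.17 and 2.07 to 0.151 and 0.144 RPKM.

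Primitive streak genes rose from low levels. Of 30 genes of the list only 8 entered the comparison, and of these 6 rose and 0 fell (8 and 0 without both ESC replicate 2 libraries). Entry required 1 RPKM in 2 libraries, which a gene absent from ESCs could reach only by being higher in NPC control, so the count is a description. Fgf8, a ligand of the streak and of the posterior neural plate, was at 0.07504 and 0.2000 RPKM in ESC control and 5.27 and 4.002 in NPC control (log2 change 2.30, standard error 0.20, adjusted p = 0.00124). T, the T-box gene Brachyury, was at 0.0858 and 0.285 RPKM against 2.21 and 2.21, and Wnt3, the ligand that starts the streak, at 0.451 and 1.24 against 5.39 and 5.43. Wnt8a went from 0.514 and 0.6299 to 3.41 and 3.57 RPKM and Nkx1-2, a homeobox gene of the posterior neural and mesodermal progenitor zone, from 0.08202 and 0.219 to 1.54 and 1.15. Eomes changed less, from 1.28 and 1.05 to 2.06 and 1.94 RPKM. These levels were low beside the pluripotency genes, and Mixl1, Mesp1 and Tbx6 stayed under 1 RPKM in all 4 libraries. Of 6 endoderm list genes in the comparison 2 rose and 0 fell (3 and 2 without both ESC replicate 2 libraries): the endocytic receptor gene Lrp2, from 9.62 and 15.7 to 38.5 and 37.7 RPKM, and the activin inhibitor gene Fst, from 1.35 and 2.53 to 5.25 and 5.83. Both are also expressed in neural tissue. Apoe was at 274 and 157 RPKM against 154 and 162 and did not pass.

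Signalling genes were read by pathway. The shares that passed were 22.2% for Nodal, 30.8% for BMP, 35% for FGF and ERK and 34.5% for Wnt. They were 37.5% for Notch, 40% for Hedgehog and 41.7% for retinoic acid, against 16.6% of all genes. None of these differences was tested. Some of the risen genes, among them Fgf5, Fgf8, Wnt5b, Wnt8a, Msx1 and Dhrs3, were under 1 RPKM in both ESC control libraries. They entered through NPC control alone, as did 266 of all genes, of which 155 passed, so the shares are descriptions. For Nodal, whose ligand signals through Smad2 and the partner Foxh1, 4 of 18 genes rose and 0 fell. Foxh1 went from 24.3 and 34.6 to 67.9 and 57.8 RPKM and the secreted inhibitor Lefty1 from 106 and 106 to 182 and 197. Without both ESC replicate 2 libraries 6 rose and 7 fell. For BMP, 3 of 13 rose and 1 fell (7 and 1 without these libraries). The ligand gene Bmp4 fell from 5.92 and 1.78 to 0.605 and 0.618 RPKM, while the target genes Id1 (25.2 and 27.7 to 62.6 and 57.1 RPKM), Id3 (9.03 and 19.9 to 40.1 and 34.98 RPKM) and Msx1 (log2 change 0.98) rose. Bmp4 therefore differed in direction from these target genes, but its ESC values lay far apart. Between the NPC and ESC Cbx3 siRNA libraries its log2 change was -0.67 (limma, adjusted p = 0.231). Id2 was at 6.93 and 21.2 RPKM against 26.9 and 27.3 and did not pass.

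In the FGF and ERK list 4 of 20 rose and 3 fell, and 8 rose and 6 fell without both ESC replicate 2 libraries. The ligand genes Fgf8, Fgf5 and Fgf15 rose, while Fgf4, the ESC ligand, was at 78.6 and 46.9 RPKM against 45.6 and 48.5 and did not pass. The receptor gene Fgfr1 rose from 9.66 and 10.3 to 17.3 and 13.9 RPKM. Of the feedback and target genes Spry4 fell from 23.2 and 12.4 to 4.65 and 4.77 RPKM (log2 change -1.66, standard error 0.26, adjusted p = 0.00814), Spred1 fell from 32.5 and 26.00 to 15.1 and 14.6, and Ier3 fell from 9.29 and 9.58 to 4.66 and 4.69. The phosphatase gene Dusp6 (log2 change 0.31) and the ETS factor gene Etv4 (-0.85) did not pass.

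Wnt genes gave 8 rises and 2 falls among 29 (14 and 4 without both ESC replicate 2 libraries). Beside the ligands Wnt3 and Wnt8a, Wnt5b rose from 0.406 and 0.865 to 3.25 and 3.67 RPKM, and the receptor genes Fzd2 and Fzd10 rose from 5.36 and 6.79 to 16.6 and 15.6 and from 3.36 and 3.12 to 8.46 and 8.36 RPKM. The receptor gene Fzd5 fell from 15.4 and 9.76 to 4.01 and 3.77 RPKM and Notum, a secreted Wnt inhibitor and target, from 5.57 and 2.39 to 0.276 and 0.657. Receptors thus went both ways, and Fzd7 (log2 change -0.13) and Lgr4 (0.14) did not pass. Ctnnb1, which encodes beta-catenin, was at 285 and 218 RPKM against 239 and 264 (adjusted p = 0.963).

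Notch genes gave 4 rises and 2 falls among 16 (5 and 2 without both ESC replicate 2 libraries). The receptor gene Notch3 rose from 5.92 and 6.49 to 19.4 and 14.5 RPKM, the ligand genes Jag2 and Dll3 by 0.75 and 0.59 log2 units, and Lfng as above. Rbpj, the DNA-binding effector, fell from 15.97 and 17.3 to 6.34 and 5.24 RPKM (log2 change -1.38, standard error 0.19) and has 3 pseudogenes named after it. The target genes Hes1 (log2 change 0.20) and Hes6 (0.54) did not pass. Of the Hedgehog list 3 of 10 rose and 1 fell (4 and 4 without both ESC replicate 2 libraries). The signal transducer gene Smo rose from 11.3 and 16.3 to 28.4 and 28.6 RPKM, with Gpc3 and Gas1 (log2 changes 0.65 and 0.51), while Gli1, the transcriptional target and effector, fell from 2.36 and 1.56 to 0.594 and 0.323 and Ptch1, the receptor and target, was at 8.91 and 6.02 RPKM against 4.61 and 2.997 (adjusted p = 0.0554, not passed). In the retinoic acid list, 3 of 12 rose and 2 fell (5 and 2 without both ESC replicate 2 libraries). Dhrs3, a retinal reductase, rose from 0.477 and 0.956 to 4.69 and 3.42 RPKM. The receptor genes Rarg and Rara fell from 45.1 and 22.4 to 15.3 and 13.1 and from 13.6 and 10.7 to 7.98 and 6.23 RPKM, whereas Rxra rose from 3.88 and 4.24 to 6.58 and 6.301.

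Contractile and muscle genes held some of the largest changes of the whole comparison in both directions. Their promoters are shown first for the members that carry a CArG box (CC, 6 bases of A or T, then GG), the element bound by serum response factor, which controls actin and smooth muscle genes. RefSeq promoters of build GRCm38.p6 were matched by symbol for 26 of the list's genes, and the 250 bases before the annotated start were searched on both strands (the element reads the same on either). A box was found for 6 of them and for 1.62% of all 27025 symbols. Among the measured list genes with a promoter, 3 of 7 that rose, 0 of 2 that fell and 3 of 10 that did not pass held one. Only exact matches were counted. The window of Acta2, which fell, holds the near matches ccctatatgg and ccttgtttgg, with a C or a G among the middle bases. The former also stands in the Actc1 window. Near matches were not counted for any gene, so these counts give no contrast between risen and fallen genes. The 3 risen genes with a box and Mylpf, which fell and has none in this window, are printed 5′ to 3′ on the strand of the gene, with the box in capitals. A match of letters is a description and not a bound site.
Actc1, chr2:114052876-114053125, minus strand: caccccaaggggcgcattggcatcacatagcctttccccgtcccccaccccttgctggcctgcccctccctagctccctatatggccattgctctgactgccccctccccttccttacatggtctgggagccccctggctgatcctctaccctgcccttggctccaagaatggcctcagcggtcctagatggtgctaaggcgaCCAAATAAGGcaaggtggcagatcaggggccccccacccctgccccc
Myl3, chr9:110763428-110763677, plus strand: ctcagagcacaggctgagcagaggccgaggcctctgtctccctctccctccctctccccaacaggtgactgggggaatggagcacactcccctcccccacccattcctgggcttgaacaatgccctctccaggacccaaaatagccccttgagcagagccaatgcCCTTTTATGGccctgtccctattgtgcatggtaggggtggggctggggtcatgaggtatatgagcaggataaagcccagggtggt
Myl9, chr2:156775214-156775463, plus strand: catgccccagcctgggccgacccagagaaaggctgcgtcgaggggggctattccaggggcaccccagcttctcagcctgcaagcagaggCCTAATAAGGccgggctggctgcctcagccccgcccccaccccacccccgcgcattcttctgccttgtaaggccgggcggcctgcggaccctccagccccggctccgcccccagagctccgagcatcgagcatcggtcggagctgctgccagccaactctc
Mylpf, chr7:127211358-127211607, plus strand: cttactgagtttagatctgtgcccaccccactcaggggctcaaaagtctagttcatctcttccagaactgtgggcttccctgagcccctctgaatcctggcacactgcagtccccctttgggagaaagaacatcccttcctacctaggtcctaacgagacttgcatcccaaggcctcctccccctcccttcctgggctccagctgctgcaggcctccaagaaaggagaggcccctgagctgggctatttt

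Of 23 measured contractile genes 8 rose and 4 fell, with a median of 1.01, and 15 rose and 5 fell without both ESC replicate 2 libraries. Actc1, the cardiac alpha-actin gene, was at 0.0267 and 1.74 RPKM in ESC control and 14.7 and 13.6 in NPC control. Its NPC values were more than 7-fold over the higher ESC value, and the change was the largest rise by the naming rule (log2 change 3.18, standard error 0.45, adjusted p = 0.00592). Cnn1, the smooth muscle calponin gene, was at 2.71 and 12.1 RPKM against 57.1 and 55.4 (log2 change 3.04). Tagln, the smooth muscle actin-binding protein transgelin, reached the highest level of the risen members, with 34.1 and 93.3 RPKM in ESC control and 284 and 280.2 in NPC control (log2 change 2.30, standard error 0.59, adjusted p = 0.0386). The myosin light chain genes Myl9 and Myl3 rose from 19.5 and 51.4 to 129 and 137 and from 0.239 and 0.602 to 7.08 and 6.66 RPKM. In Actc1, Cnn1, Tagln and Myl9 ESC control replicate 2 lay above replicate 1 and under both NPC libraries. Tpm1, a tropomyosin gene at 62.6 and 163 RPKM against 338 and 365, did not pass (log2 change 1.79, standard error 0.57, adjusted p = 0.0706). Other members of the same protein families fell. Mylpf, the fast skeletal regulatory light chain, went from 75.5 and 31.2 to 8.03 and 7.68 RPKM, and the smooth muscle actin genes Acta2 and Actg2 from 29.2 and 32.1 to 18.7 and 18.5 and from 2.79 and 2.94 to 0.353 and 0.456 RPKM. Mymx, a small fusion protein of myoblasts, went from 42.6 and 13.2 to 0.633 and 1.003 RPKM (log2 change -3.78, standard error 0.56, adjusted p = 0.00676). The actin genes are alike in coding sequence and could share reads. Of 6 muscle markers, Tnnt2 and Myog stayed under 1 RPKM in all 4 libraries, 1 rose (Actc1) and 1 fell (Acta2). The summed level of the markers was 31.6 and 53.2 RPKM in ESC control and 94.5 and 92.3 in NPC control. Most of the NPC sum was Acta1, which did not pass and whose values are given in the last section.

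Epithelial genes were mostly higher, with wide ESC spreads. Of 27 measured, 6 rose, 2 fell and 19 did not pass, while 22 had NPC values above both ESC values (background 35.1%) and 22 rose and 2 fell without both ESC replicate 2 libraries. The tight junction genes Cldn3 and Ocln rose from 3.97 and 5.204 to 12.7 and 12.8 and from 5.47 and 7.86 to 12.5 and 14.4 RPKM, and the desmosome gene Pkp2 from 17.5 and 19.8 to 32.1 and 32.4. Lad1 and the repressor gene Ovol2 rose by 0.75 and 0.50 log2 units. Krt18, a keratin of simple epithelia, was at 10.05 and 54.3 RPKM in ESC control and 132 and 141 in NPC control. Its ESC replicates lay more than 5-fold apart, so a log2 change of 2.47 with a standard error of 1.03 did not pass (adjusted p = 0.141). Krt19 was at 2.91 and 8.66 RPKM against 16.3 and 17.8 with the same outcome (adjusted p = 0.154). The cadherin genes did not switch by this test. Cdh1, E-cadherin, was at 101 and 137 RPKM in ESC control and 181 and 167 in NPC control (adjusted p = 0.0956), and Cdh2, N-cadherin, at 0.987 and 2.06 RPKM against 2.44 and 2.58 (adjusted p = 0.313), so Cdh1 stayed by far the higher of the pair in RPKM. Epcam (adjusted p = 0.0979) did not pass either. Among cadherins and catenins Pcdh1 rose by 1.53 and Cdh11, a mesenchymal cadherin gene, fell by 1.14 log2 units, with 11 of 13 not passing (8 rose and 1 fell without both ESC replicate 2 libraries). The trophoblast and germ cell factor gene Tfap2c fell from 7.85 and 5.72 to 1.499 and 1.67 RPKM and the transglutaminase gene Tgm1 from 11.7 and 18.8 to 5.67 and 6.43.

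**Figure D4:**
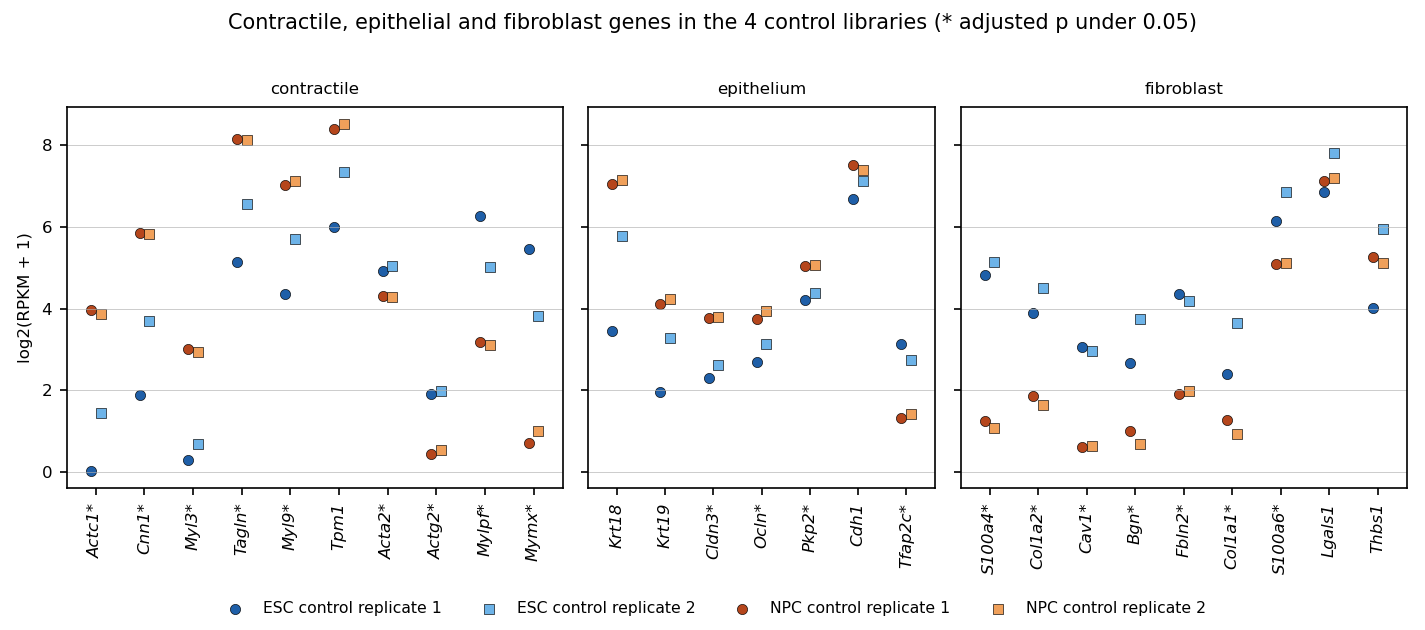
Levels of contractile, epithelial and fibroblast genes as log2(RPKM + 1) (vertical axis), 1 point for each of the 4 libraries, with ESC control in blue and NPC control in orange, replicate 1 as circles and replicate 2 as squares. An asterisk marks genes that passed. Krt18, at 10.05 and 54.3 RPKM in ESC control, has widely separated ESC points and no asterisk, whereas S100a4 has close points in both groups.

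Of the fibroblast genes that passed all fell, and the ESCs had been grown on MEFs. Of 24 measured genes of the list 13 fell and 0 rose (median -1.36), and 14 fell and 7 rose without both ESC replicate 2 libraries. S100a4, a calcium-binding protein gene of fibroblasts, had the largest fall by the naming rule, from 27.2 and 34.3 to 1.38 and 1.13 RPKM (log2 change -3.81, standard error 0.13, adjusted p = 4.24e-05). The collagen I genes Col1a2 and Col1a1 fell from 13.97 and 21.8 to 2.66 and 2.15 and from 4.300 and 11.6 to 1.41 and 0.913 RPKM. The caveola gene Cav1 went from 7.31 and 6.79 to 0.537 and 0.561 RPKM, the proteoglycan gene Bgn from 5.36 and 12.4 to 1.01 and 0.608, and the fibulin gene Fbln2 from 19.6 and 17.3 to 2.75 and 2.95. For Col1a1, Col1a2 and Bgn the higher ESC value was in replicate 2, where naive genes were lower. The summed level of the 7 fibroblast markers was 52.2 and 77.2 RPKM in ESC control and 10.7 and 9.17 RPKM in NPC control. The part of feeder cells in this group was not tested. S100a6 fell from 70.3 and 114 to 33.1 and 33.9 RPKM, while Lgals1 (log2 change -0.18), Thbs1 (0.21) and the mesenchymal factor gene Twist1 (0.20) did not pass. Matrix genes outside fibroblasts went both ways, with 4 of 27 risen and 5 fallen (9 and 8 without these libraries). Spp1, osteopontin, fell from 142 and 184 to 35.9 and 39.2 RPKM, fibronectin (Fn1) from 29.9 and 47.2 to 15.8 and 12.5, and the basement membrane genes Lama1, Lamc1 and Nid1 from 10.5 and 4.03 to 0.9102 and 0.991, from 44.6 and 29.3 to 21.5 and 19.5 and from 11.8 and 8.13 to 2.32 and 1.87 RPKM. Lama5, another laminin alpha chain gene, rose from 17.9 and 18.9 to 31.5 and 27.2 RPKM, so the laminin alpha chains changed in opposite directions. Col2a1, the cartilage and notochord collagen gene, rose from 0.5700 and 1.96 to 10.7 and 8.92 RPKM, and Agrn and Fras1 rose by 0.79 and 1.26 log2 units.

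Chromatin genes that changed were mostly lower. None of 15 DNA methylation genes rose and 4 fell (2 and 7 without both ESC replicate 2 libraries). Tet1, the main 5-methylcytosine oxidase gene of ESCs, went from 30.1 and 18.6 to 5.91 and 4.92 RPKM (log2 change -1.95, standard error 0.26, adjusted p = 0.00557), Tet2 from 10.1 and 5.09 to 1.71 and 0.9700, and Dnmt3l, the cofactor of the de novo methyltransferases, from 207 and 191 to 78.5 and 82.97. Gadd45a changed by -0.78 log2 units. Uhrf1, which brings maintenance methylation to replicating DNA, was at 63.1 and 53.8 RPKM against 50.5 and 54.5 and did not pass. Of 23 Polycomb genes 6 fell and 1 rose (12 and 2 without these libraries). Falls included PRC2, the complex that methylates H3K27: its core subunit genes Eed (87.1 and 61.01 to 35.1 and 38.6 RPKM) and Suz12 (36.9 and 28.7 to 21.6 and 22.3 RPKM) and its accessory genes Jarid2 (109 and 54.01 to 27.6 and 27.4 RPKM, log2 change -1.45) and Mtf2 (64.8 and 44.9 to 22.2 and 24.1 RPKM). Rybp of the variant PRC1 complexes fell too, and Kdm2b, which targets such a complex to CpG islands, rose from 16.4 and 14.7 to 28.5 and 25.8 RPKM. The histone-binding subunit genes Rbbp4 (log2 change -0.23) and Rbbp7 (-0.33) did not pass. Among 16 HP1 and H3K9 genes 0 rose and 1 fell, against 0 and 8 without both ESC replicate 2 libraries. The gene that fell was Zfp57, a KRAB zinc finger gene that guards imprints, from 40.4 and 14.2 to 7.21 and 6.73 RPKM. The HP1 genes Cbx1 (log2 change -0.21) and Cbx5 (-0.08) and the corepressor gene Trim28 (0.03) did not pass. Med26, a Mediator subunit gene, was at 6.02 and 6.01 RPKM in ESC control and 7.56 and 6.78 in NPC control (log2 change 0.22, standard error 0.10, adjusted p = 0.182).

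**Figure D5:**
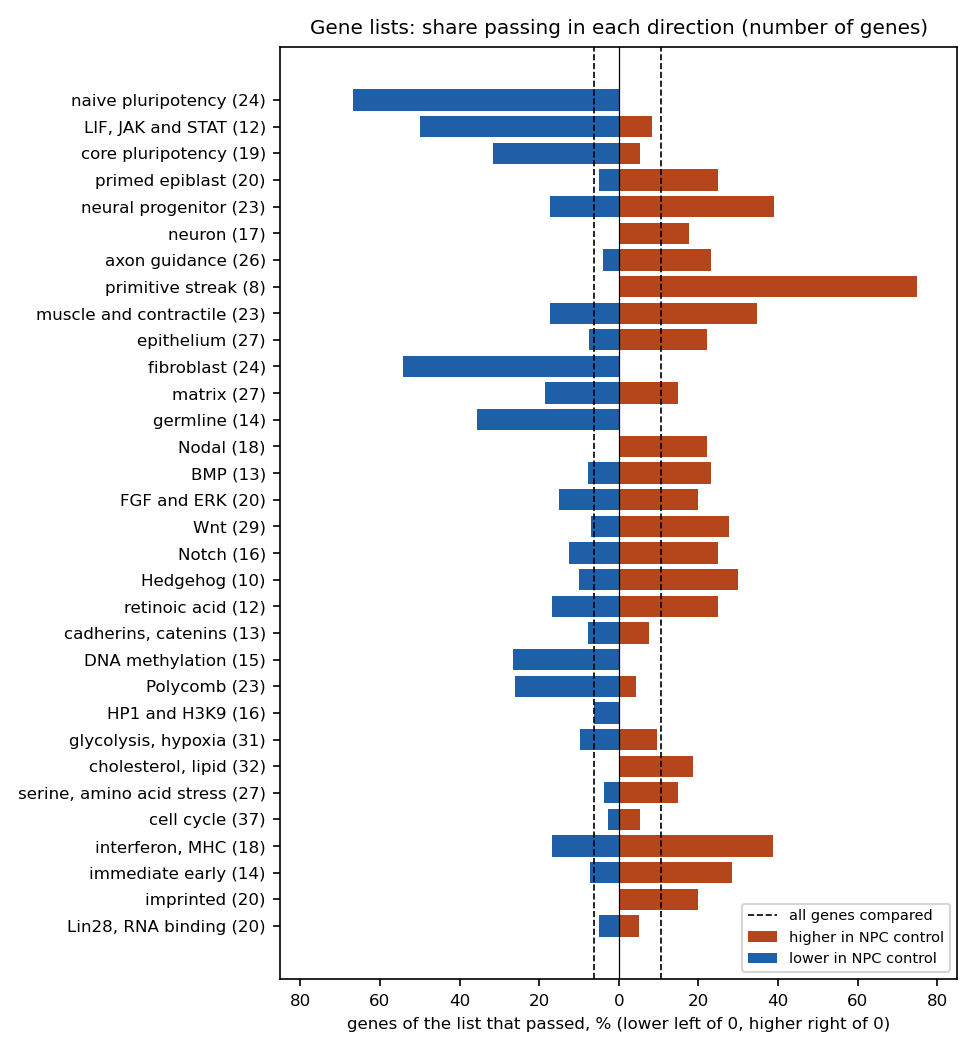
Share of the measured genes of each list that passed (horizontal axis, percent), higher in NPC control to the right and lower to the left, with the number of genes in brackets, for lists of 8 genes or more. Dashed lines mark the shares over all genes compared, 10.5% and 6.15%. The longest bars to the left are the naive pluripotency and fibroblast lists and the longest to the right is the primitive streak list. A gene absent from either group could enter the comparison only by being higher in the other. The bars, that of the primitive streak list among them, are therefore descriptions, and their distances from the dashed lines were not tested.

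The shares of metabolic genes that passed lay near the background of 16.6%. They were 19.4% for glycolysis and hypoxia, 18.8% for cholesterol and lipid and 18.5% for serine and amino acid stress. Of 31 glycolysis and hypoxia genes 3 rose and 3 fell (5 and 15 without both ESC replicate 2 libraries). The monocarboxylate exporter gene Slc16a3 rose from 37.1 and 46.8 to 129 and 129.9 RPKM (log2 change 1.61, standard error 0.12, adjusted p = 0.000991). The phosphofructokinase genes went in opposite directions, Pfkm by 0.44 and Pfkp by -1.40 log2 units. The hexokinase gene Hk1 and the mitophagy gene Bnip3 fell, the latter from 14.6 and 12.4 to 4.71 and 5.36 RPKM. The abundant enzymes Aldoa, Pkm and Ldha did not pass (log2 changes 0.07, -0.10 and -0.24). In the cholesterol and lipid list 6 of 32 rose and 0 fell (7 and 13 without both ESC replicate 2 libraries). The squalene epoxidase gene Sqle, the fatty acid synthase gene Fasn, the desaturase gene Fads2 and the regulator gene Srebf1 rose by 0.91, 0.59, 0.59 and 0.56 log2 units. Acly, which makes acetyl-CoA for both pathways, at 109 and 70.5 RPKM against 93.9 and 97.6, did not pass. Of 27 serine synthesis and amino acid stress genes 4 rose and 1 fell (13 and 5 without both ESC replicate 2 libraries). The stress factor gene Atf3 rose from 1.37 and 3.16 to 9.53 and 9.69 RPKM, the arginine transporter gene Slc7a3 from 66.05 and 91.2 to 129 and 134, and Nupr1 fell from 17.8 and 13.8 to 5.67 and 5.49. Atf4, the main factor of this response, was at 166 and 148 RPKM against 204 and 205 (adjusted p = 0.0546, not passed).

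Most cell cycle genes did not pass. Of 37, 2 rose and 1 fell, a share of 8.11% against 16.6% of all genes, and the difference of these shares was not tested. Without both ESC replicate 2 libraries 7 rose and 8 fell. The Myc family divided: Mycl rose from 4.95 and 3.97 to 15.1 and 14.1 RPKM and Mycn fell from 68.9 and 76.6 to 49.8 and 45.2. The kinase inhibitor gene Cdkn1a rose from 9.404 and 11.5 to 17.5 and 14.1 RPKM. Top2a, Cdk4 and Mcm5 did not pass (log2 changes -0.08, 0.25 and 0.34).

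Interferon and antigen presentation genes went in both directions. Of 18 genes 7 rose and 3 fell, and 11 rose and 6 fell without both ESC replicate 2 libraries. The immunoproteasome genes Psmb8 and Psmb9 rose from 0.191 and 1.05 to 4.41 and 4.58 and from 2.95 and 1.703 to 5.31 and 4.96 RPKM. Tap1 and Tap2, which encode the peptide transporter of the MHC class I pathway, rose from 2.17 and 2.61 to 5.96 and 5.87 and from 0.494 and 0.802 to 2.07 and 2.28 RPKM. The regulator gene Irf1 was at 8.41 and 7.71 RPKM in ESC control and 17.4 and 18.4 in NPC control (log2 change 1.06, standard error 0.10, adjusted p = 0.0018). Bst2 rose by 0.71 log2 units. Outside the list, Gbp2, an interferon-induced GTPase gene, rose from 0.477 and 2.41 to 8.38 and 9.33 RPKM. Ifitm1, a membrane protein gene of germ cells and ESCs as well as an interferon target, fell from 27.6 and 21.8 to 6.66 and 6.37 RPKM, with Ifitm2 (log2 change -0.60) and Ifi27 (-1.17).

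Immediate early genes, which respond to serum and growth factors within minutes, gave 4 rises and 1 fall among 14 (6 and 1 without both ESC replicate 2 libraries). Jun and Jund rose from 2.52 and 5.000 to 9.58 and 8.62 and from 33.7 and 30.4 to 53.4 and 52.1 RPKM, with Atf3 and Btg2, while Ier3 fell and Ier2 (log2 change 0.24) and Klf6 (0.85) did not pass. Of 20 imprinted genes 4 rose and 0 fell (14 and 1 without both ESC replicate 2 libraries). Nnat, a neuronal proteolipid gene, rose from 3.799 and 10.1 to 21.7 and 19.95 RPKM, the growth suppressor gene Ndn from 4.87 and 7.76 to 16.05 and 15.4, the adaptor gene Grb10 from 76.5 and 68.96 to 111 and 112 and Igf2r from 13.01 and 14.1 to 17.3 and 18.3. Mest and Phlda2 did not pass (log2 changes 0.83 and -0.13). The shares that passed were 35.7% for immediate early genes and 20% for imprinted genes, the latter near the 16.6% of all genes. Germline genes, several of which ESCs also express, gave 0 rises and 5 falls among 14 (2 and 8 without both ESC replicate 2 libraries). Stra8, the retinoic acid target of meiotic entry, fell from 4.96 and 2.14 to 0.2300 and 0.387 RPKM, and the transposon defence genes Tex19.1 and Tdrd12 and the RNA-binding gene Dazl fell by 0.95, 0.97 and 0.76 log2 units. Mael did not pass (log2 change 0.26). Among 20 RNA-binding genes of the Lin28 group 1 rose and 1 fell (6 and 3 without both ESC replicate 2 libraries): the mRNA-binding protein gene Igf2bp3 rose from 21.9 and 29.1 to 38.5 and 40.4 RPKM and the splicing factor gene Mbnl2 fell from 5.44 and 8.16 to 2.97 and 3.11, while Igf2bp1 and Ptbp1 did not pass (log2 changes 0.29 and -0.09). Of the neural crest list 1 of 5 genes rose (Msx1, counted above), of trophoblast 1 of 3 rose (Eomes) and 1 fell (Tfap2c), and of blood and endothelium 1 of 3 fell (Pecam1). Without both ESC replicate 2 libraries the neural crest list gave 3 higher and 1 lower, trophoblast 1 and 1, and blood and endothelium 1 and 2. None of 11 genes of 2-cell-like cells reached the limit for the comparison.

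The other genes among the 15 largest rises and the 15 largest falls belonged to no list. Enpp2, which encodes autotaxin, the enzyme that makes lysophosphatidic acid, rose from 1.52 and 4.95 to 22.2 and 24.1 RPKM, and Ppp4r4, a regulatory subunit gene of protein phosphatase 4, from 0.2596 and 1.84 to 11.7 and 12.7. The growth factor carrier gene Igfbp3 rose from 7.63 and 14.05 to 51.4 and 50.8 RPKM and the secreted kinase gene Pkdcc from 5.83 and 6.82 to 31.1 and 30.5. Pkdcc differs from most of these in that its ESC values were close. The neuronal kinesin gene Kif1a, the sulfotransferase gene Chst15, the Z-line gene Pdlim3 and the lipoxygenase gene Alox15 rose by 2.17, 2.12, 2.06 and 2.05 log2 units. Falls included the zinc finger genes Zfp979, from 46.6 and 48.98 to 5.85 and 6.69 RPKM (log2 change -2.75, standard error 0.11, adjusted p = 0.000105), and Zfp981, from 8.77 and 20.7 to 1.33 and 1.902. Zinc finger genes of such families can share reads with close copies. Septin1 fell from 20.2 and 12.2 to 1.100 and 1.01 RPKM, the epithelial membrane protein gene Emp1 from 7.48 and 9.296 to 0.342 and 0.481 and the oxidase gene Enox1 from 14.9 and 8.44 to 1.11 and 1.45.

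The same change was measured in libraries that share no sample with these, the NPC and ESC cultures that received Cbx3 siRNA, where 20.8% of the 11317 genes passed. Of the 1882 genes that passed in the controls, 1874 had the same sign there (99.6%, against 86.98% of all genes compared) and 1506 passed in the same direction. The ESC replicates of both siRNA groups deviated alike (r = 0.88 over genes), and all libraries share 1 estimate of the spread, so the groups are not independent in every respect. Esrrb changed by -3.79 in the controls and -3.80 with Cbx3 siRNA, Actc1 by 3.18 and 2.88, S100a4 by -3.81 and -3.33, and Fgf8 by 2.30 and 2.31. The values lay farther apart for some genes. Sox1 changed by 0.58 in the controls and 0.02 with Cbx3 siRNA, Acta2 by -0.69 and 0.16, and Ier3 by -0.88 and 0.02. The difference between the 2 comparisons passed for 0 genes by limma (233 at an unadjusted p under 0.05, lowest adjusted p = 0.548), so none of these genes was shown to differ between them.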

How the data were processed

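The authors deposited 1 table of RPKM values per RefSeq transcript accession for 10 libraries. The submitters' processing notes name TopHat2 2.08 and build mm9, with no further role stated. The counter, annotation, use of strand and treatment of multi-mapping reads were not given in the sources used here. Hence overlapping genes, isoforms and close copies can share reads. Symbols were found for 99.07% of the 35860 rows through the RefSeq table of GRCm38.p6 (names only), and 334 rows stayed under their accession. The row with the highest mean stood for a gene (3585 of the 11317 genes compared had several), which gave 24520 genes. Depth was read from the steps of low values, with transcript lengths from GENCODE. Because RPKM values are normalized, a count model was not applied.

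The 11956 genes that reached 1 RPKM in 2 or more of all 10 libraries were fitted as log2(RPKM + 1) with limma 3.58.1 in R 4.3.3, by group and without a block, with an intensity trend, two-sided tests and Benjamini-Hochberg adjustment over all of them at 0.05. The pseudocount understates the change of low genes. On simulated data the fit recovered 70% of 2-fold and 93% of 4-fold changes in the control comparison over 11956 genes. The simulation gave each gene the same pooled spread in all libraries, with independent noise. It left out the wider and shared deviations of the ESC libraries, so these rates do not describe the recovery in the real libraries. Promoters come from RefSeq (GRCm38.p6), not from the build of the table.

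The 38 gene lists and the members were chosen with earlier results of these data known. Named genes are the 15 largest rises and falls that passed, did not overlap and reached 5 RPKM in the higher group, up to 5 per list and direction, the 3 highest of each list by level, and a panel of stage markers, Cbx3 and Med26. Alternatives changed the pseudocount, filter, scaling, libraries, weights, block and choice of row. Some genes are not reported here.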

Additional observations from a re-analysis of the deposited data

How the results depend on the processing

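Depth limits genes near 1 RPKM, and the spread between the ESC libraries enters every p-value as reported. Tested genes that passed were counted under each alternative, with the higher and the lower given after the total. As reported, 1918 genes passed (1208 and 710). With only the 4 control libraries (2 residual degrees of freedom) the counts were 47 (13 and 34), with 2905 at an unadjusted p under 0.05, and with array weights 1074 (625 and 449). With another pseudocount, no filter, a filter on the control libraries alone, rescaled libraries or the mean of a gene's rows, totals ran from 1831 to 1990. Leaving out 1 library at a time gave 185 to 2699 (higher 100 to 1668, lower 85 to 1112): 185 and 242 without NPC control replicates 1 and 2, 1191 and 2372 without ESC control replicates 1 and 2, 1091 to 1108 without an NPC library of another siRNA and 2694 or 2699 without an ESC Cbx3 siRNA library. In such fits the lone library is assumed to vary like the other groups. The Cbx3 siRNA comparison gave 2460 genes, and 411 to 3286 without 1 library.

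Alternatives chosen after seeing the data left out both ESC replicate 2 libraries, which gave 5518 (2760 and 2758), or both ESC replicate 1 libraries, which gave 5216 (3162 and 2054). Their spread comes from the NPC libraries alone (3 residual degrees of freedom), so the ESC spread does not enter these p-values. The cause of the ESC difference was not tested.

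Replicate numbers do not pair ESC with NPC libraries: replicate deviations correlated at -0.06 between the control groups, against 0.88 between the ESC groups and 0.45 to 0.48 between the NPC groups. A block for the replicate number gave 2318 genes (1423 and 895) and 2864 in the Cbx3 siRNA comparison, and a block within each cell type gave 6912 (3821 and 3091) and 7249.

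Of the 238 genes named in the text and tested, 172 passed as reported. None of these changed sign under any alternative run. Up to 19 lost the call with another pseudocount, rescaling or the mean of rows, 31 with no filter, 30 with array weights, 151 with the control libraries alone, 50 and 16 without ESC control replicate 1 and 2, 133 and 131 without NPC control replicate 1 and 2, and 42 to 45 without another NPC library. Changes of sign were found for genes that did not pass. Rescaling gave log2 changes of -0.046 for Ctnnb1, -0.00097 for Pim1, -0.026 for Trim28. With 1 library left out, their log2 changes ran as follows: Acly -0.19 to 0.44, Aldoa -0.066 to 0.21, Apoe -0.79 to 0.0099, Cdk4 -0.049 to 0.54, Ctnnb1 -0.18 to 0.21, Fgf4 -0.73 to 0.0037, Hes1 -0.24 to 0.64, Ier2 -0.022 to 0.50, Igf2bp1 -0.035 to 0.62, Lgals1 -0.66 to 0.29, Nanog -0.86 to 0.39, Olig1 -0.14 to 0.26, Phlda2 -0.55 to 0.29, Pim1 -0.29 to 0.41, Pim3 -0.65 to 0.36, Pkm -0.26 to 0.058, Pou5f1 -0.13 to 0.67, Ptbp1 -0.33 to 0.14, Slc1a3 -0.22 to 0.39, Stmn2 -0.68 to 0.28, Thbs1 -0.76 to 1.19, Top2a -0.34 to 0.18, Trim28 -0.12 to 0.18. For these genes, leaving out both ESC libraries of a number gave the value found without the ESC control library of that number. These included -0.11 for Olig1 and 0.13 for Ptbp1 without both ESC replicate 2 libraries.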

Other observations

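Some genes with large differences between group means did not pass, and their values are given here without a test of a cause. They were chosen after their values were seen. Acta1, the skeletal muscle actin gene, was at 1.54 and 18.2 RPKM in ESC control and 59.8 and 58.99 in NPC control (log2 change 3.11, standard error 1.19, adjusted p = 0.113), and Krt8, the partner of Krt18 in simple epithelial filaments, at 4.59 and 40.7 RPKM in ESC control and 59.4 and 62.6 in NPC control (adjusted p = 0.29). In both the NPC values exceeded both ESC values and the ESC values were more than 8-fold apart. Tcl1, a coactivator gene of the kinase AKT in ESCs, was at 18.1 and 2.57 RPKM in ESC control and 0.387 and 0.391 in NPC control (log2 change -2.57, adjusted p = 0.0758), and Inhbb, which encodes the activin beta-B chain, at 9.98 and 1.701 RPKM in ESC control and 0.105 and 0.0683 in NPC control (log2 change -2.33, adjusted p = 0.0713). Gapdh, often used as a reference gene, was at 2.62 and 57.8 RPKM in ESC control and 2.47 and 2.13 in NPC control (log2 change -2.15, adjusted p = 0.356): 3 libraries held nearly the same value and ESC control replicate 2 was more than 20-fold higher. It has 3 pseudogenes named after it, and the reads behind these values were not examined.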
